A study of Mus musculus with 2 samples.

Results

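The nuclear-encoded subunits of the mitochondrial respiratory chain were examined in whole spleen of newborn mice. They were chosen by name: every protein-coding gene in both gene tables whose GENCODE M21 symbol begins with Ndufa, Ndufb, Ndufc, Ndufs, Ndufv, Uqcr, Cox4i, Cox5, Cox6, Cox7, Cox8 or Atp5, together with Sdha, Sdhb, Sdhc, Sdhd and Cyc1. The rule uses no measured value. It returned 94 genes of the 43346 Ensembl genes in the tables, and 21474 of those genes were protein-coding. Of the 94 genes, 85 encode subunits of complexes I to V, 8 are complex I assembly factors that share the Ndufa prefix (Ndufaf1 to Ndufaf8), and the remaining gene is Atp5s, named for an ATP synthase coupling factor. The name of respiratory chain subunit therefore fits 85 of the 94 genes.

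Oxidative phosphorylation runs through the complexes in order. Complex I (NADH dehydrogenase) and complex II (succinate dehydrogenase) pass electrons to ubiquinone, complex III (the cytochrome bc1 complex) passes them on to cytochrome c, and complex IV (cytochrome c oxidase) reduces oxygen. Complexes I, III and IV pump protons, and complex V (ATP synthase) uses the gradient to make ATP. Most subunits are encoded in the nucleus and a small set of core subunits in mitochondrial DNA, so each complex except complex II is assembled from both sources. Some complex IV subunits exist as paralogs that are used in particular tissues such as heart, skeletal muscle, lung or testis. Spleen around birth is a blood-forming organ, and maturing red cells lose their mitochondria before they become erythrocytes.

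The series has 1 group of 2 libraries. Each is total RNA of more than 200 nt from 1 spleen of a B6NCrl mouse pup at postnatal day 0, untreated and with no allele named, extracted with mirVana and prepared from 10 ng of RNA. Replicate 1 is pup 2 and replicate 2 is pup 1 of pregnancy 1; both entries carry the same donor identifier although they name different pups, and sex was not collected. There is no second condition, so the values below are levels in the 2 pups, given as replicate 1 and replicate 2 or as mean ± SD (n = 2), and no test was possible. The gene tables held 33122187 and 32162543 expected counts. Erythroid, neutrophil and macrophage marker lists were each detected in full in both libraries (6 of 6 genes), and 4 of 5 B cell markers were. Marker sums differed between the pups: 2399 and 2138 TPM for the erythroid list, 12473 and 17898 TPM for the neutrophil list, 500.3 and 728.5 TPM for the macrophage list, and 699.99 and 243.34 TPM for genes of pancreatic acinar cells, a tissue that borders the spleen. In whole tissue, fewer cells of a type and less RNA per cell cannot be told apart.

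Nearly the whole respiratory chain was expressed. At least 1 TPM (a level corrected for transcript length and scaled to the same total in each library) in both libraries was reached by 90 of the 94 genes, against 55.6% of all protein-coding genes. The exceptions were 4 tissue-type isoforms of complex IV, Cox6a2, Cox8b, Cox7b2 and Cox8c. The 94 genes together made up 2.56% and 2.44% of all TPM, a mean of 2.50% ± 0.0900. By expected counts, which are not corrected for length, the share was 1.52% ± 0.0722. The median of the 85 subunits was 242 TPM in replicate 1 and 241 TPM in replicate 2, and the median of all detected protein-coding genes was 13.1 TPM. A level of 100 TPM or more was reached by 73 of the 94 genes and by 9.11% of detected protein-coding genes, and 15 of the 94 exceeded 500 TPM.

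These are short messages. The median transcript length of the 94 genes was 686 nt, against 2356 nt for detected protein-coding genes. Their share of the total was lower by expected counts (1.52%) than by TPM (2.50%). Across the 81 detected subunits, length and TPM had a Spearman correlation of -0.47, and their log2 values a Pearson correlation of -0.26. These are descriptions across genes of the same 2 libraries, and length enters the TPM itself.

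**Figure D1:**
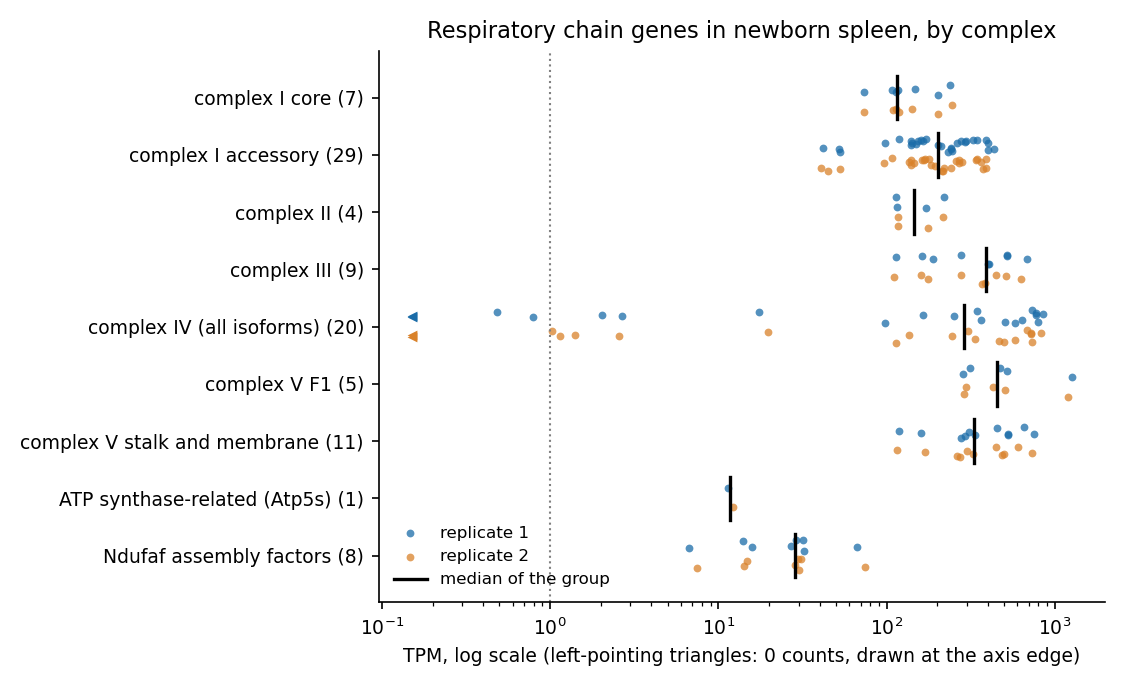
Level of each of the 94 genes in TPM (log axis), by complex, with replicate 1 in blue and replicate 2 in orange; black bars are group medians, the dotted line is 1 TPM, numbers in brackets are genes, and triangles mark 0 counts. The medians of complexes III, IV and V sit to the right of those of complexes I and II, and the complex IV row alone extends below 1 TPM.

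The complexes differed in level. The subunit median was 184 ± 3.52 TPM for complex I (36 genes), 145 ± 3.19 TPM for complex II (4 genes), 385 ± 22.5 TPM for complex III (9 genes), 287 ± 16.3 TPM for complex IV (20 genes) and 386 ± 11.3 TPM for complex V (16 genes). Leaving out the 8 tissue-type paralogs raised the complex IV median to 574 ± 47.0 TPM over 12 genes. In these 2 libraries the order from complex II through complex I to complex III was the same, and the medians of complexes III and V lay within 1 SD of each other. By share of all TPM, complex I held 0.726%, complex V 0.709%, complex IV 0.663%, complex III 0.317% and complex II 0.0623%. The complexes have different numbers of subunits and copies of each subunit, so sums do not give amounts of complex.

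Complex I oxidises NADH. Its 7 nuclear-encoded core subunits carry the flavin and the iron-sulfur clusters. Ndufs7, which holds the cluster nearest to ubiquinone, was the highest of them at 239 and 245 TPM. Ndufv2 stood at 203 and 202 TPM, and Ndufv1, which binds NADH and the flavin, at 148 and 141 TPM. Ndufs8 (113 and 119 TPM), an iron-sulfur subunit, and Ndufs3 (117 and 109 TPM), in the arm that meets ubiquinone, lay so close together that their order changed between the pups. Ndufs1, the largest subunit, was the lowest at 73.4 and 73.7 TPM. The core subunits thus spanned 3.25-fold in replicate 1 and 3.32-fold in replicate 2.

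The 29 accessory subunits of complex I ranged from 41.3 to 412 TPM, with a median of 203 ± 11.3 TPM. Highest were Ndufc1, a small membrane-arm subunit, at 436 and 387 TPM, Ndufb8 at 392 and 389 TPM, and Ndufab1, the mitochondrial acyl carrier protein, at 401 and 376 TPM. Lowest were Ndufs4 at 51.9 and 52.7 TPM, Ndufb4 at 52.5 and 44.8 TPM, and Ndufa11 at 41.9 and 40.7 TPM. Ndufa11 and Ndufs4 were each quantified with a single long transcript, of 2661 and 1534 nt. In GENCODE M21 all exons of Ndufa11 cover 1092 bases, so its quantified length is not that of M21. By counts Ndufa11 was near the other accessory subunits: it had 102 and 96.4 CPM (counts scaled to the same total), and the median of the 29 genes was 100.2 CPM. Ndufs4 stayed below that median by counts too, at 70.8 and 70.0 CPM. The low level of Ndufb4 is described below with its processed copy.

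Complex II links the chain to the TCA cycle and has no subunit encoded in mitochondrial DNA. Its 4 genes lay within 1.91-fold of each other in replicate 1 and 1.85-fold in replicate 2. Sdhd, a membrane anchor, stood at 218 and 216 TPM, and Sdhb, the iron-sulfur subunit, at 171 and 177 TPM. Sdha, the flavoprotein (115 and 118 TPM), and Sdhc, the other anchor (114 and 117 TPM), did not differ by more than their spread.

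In complex III the small subunits were higher than the catalytic and core subunits. Uqcr10 led at 684 and 630 TPM, followed by Uqcr11 at 521 and 510 TPM and Uqcrq at 520 and 446 TPM, where the spread of Uqcrq covered the level of Uqcr11. Uqcrh, the hinge protein, stood at 401 and 386 TPM and Uqcrb at 408 and 369 TPM. Of the large core proteins, Uqcrc1 was at 278 and 277 TPM and Uqcrc2 at 113 and 111 TPM, the lowest of the complex. Cyc1, cytochrome c1, stood at 190 and 177 TPM and Uqcrfs1, the Rieske iron-sulfur protein, at 163 and 160 TPM. The highest and lowest of the 9 genes were 6.03-fold apart in replicate 1 and 5.66-fold in replicate 2.

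The ubiquitous complex IV subunits formed the highest group. Cox4i1 (chr8:120668222-120674207, mm10) was at 849 and 825 TPM, Cox6b1 at 790 and 735 TPM, Cox6c at 771 and 718 TPM, Cox8a at 768 and 718 TPM and Cox6a1 at 728 and 686 TPM. The levels of Cox6b1, Cox6c and Cox8a did not differ beyond the spread between the pups. Ndufa4, named for complex I and since assigned to complex IV, stood at 636 and 581 TPM. Cox7c was at 579 and 501 TPM, Cox5b at 503 and 467 TPM, Cox5a at 362 and 338 TPM, Cox7a2 at 345 and 307 TPM and Cox7b at 253 and 244 TPM. Cox7a2l, described as a factor that joins complexes III and IV in supercomplexes, was the lowest of these 12 genes at 98.1 and 113 TPM. It was the only one of them with the higher TPM in replicate 2.

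ATP synthase held the highest gene of the set. Atp5b, the catalytic beta subunit (chr10:128083273-128090391), stood at 1261 and 1190 TPM and ranked 56 among protein-coding genes by mean TPM. Its partner in the F1 head, Atp5a1, was at 517 and 505 TPM. The other F1 genes were Atp5e at 474 and 430 TPM, Atp5d at 313 and 295 TPM and Atp5c1, the central shaft, at 286 and 287 TPM. Of the 11 stalk and membrane subunits, Atp5g3 (757 and 732 TPM), Atp5h (652 and 601 TPM) and Atp5j (527 and 498 TPM) were highest. Atp5f1 (279 and 272 TPM), Atp5l (160 and 170 TPM) and Atp5g2 (118 and 115 TPM) were lowest. Atp5s stood at 11.4 and 12.2 TPM. Outside the name rule, and chosen after its value was seen, Atpif1, the inhibitor of ATP hydrolysis by this enzyme, was at 2002 and 1690 TPM, above every gene of the set. Usmg5, a small subunit of the enzyme under an older symbol, was at 876 and 786 TPM.

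The 8 assembly factors found by prefix, which help build complex I and are absent from the finished enzyme, had a median of 28.7 ± 0.940 TPM, against 184 TPM for the subunits they assemble. Ndufaf8 was highest at 66.5 and 74.9 TPM, ahead of Ndufaf2 at 31.7 and 31.2 TPM and Ndufaf3 at 32.1 and 30.3 TPM. Ndufaf6 (15.8 and 14.3 TPM), Ndufaf7 (13.96 and 14.77 TPM) and Ndufaf5 (6.72 and 7.5 TPM) were lowest.

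Tissue-type isoforms were compared within their families. Cox4i2, the lung-type partner of Cox4i1, stood at 2.68 and 2.57 TPM (53 and 48 counts), which is 0.313% ± 0.00297 of the family's TPM. Cox7a1, the heart and muscle form, was at 2.04 and 1.40 TPM, 0.521% ± 0.0949 of the sum with Cox7a2. Cox6a2, also a heart and muscle form, was at 0.790 TPM in replicate 1 and 1.14 TPM in replicate 2, from 14 and 19 counts. Cox8b, another such form, was at 0.480 TPM (95% exact Poisson interval 0.131 to 1.24) and 1.02 TPM (0.442 to 2.02), from 4 and 8 counts, so that its pups did not differ beyond counting error. Intervals here cover counting error only. Cox7b2 and Cox8c, both known from testis, had 0 counts in both libraries. Taking 3 counts as the limit that a count of 0 allows, Cox7b2 could have reached 0.215 and 0.228 TPM and Cox8c 0.252 and 0.268 TPM.

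The muscle-type forms stood beside low levels of skeletal muscle, heart and brown fat markers. Of 6 skeletal muscle markers, 3 were at 1 TPM or more in both libraries, with sums over the list of 32.3 and 34.4 TPM, most of it from Mylpf at 25.7 and 25.9 TPM. Of 5 heart markers 2 were, with sums of 4.67 and 4.77 TPM, and of 5 brown fat markers 0 were, with a sum of 0.310 TPM in each library. Whether the counts of Cox6a2, Cox7a1 and Cox8b come from such cells was not tested. Of 5 pericyte and smooth muscle markers, 3 were at 1 TPM or more in both libraries. This list had the higher sums of 282 and 209 TPM, most of it from Acta2 at 273 and 201 TPM.

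Ndufa4l2, the paralog of Ndufa4 known as a target of hypoxia-inducible factor, was at 17.4 and 19.7 TPM. It took 2.97% ± 0.432 of the pair by TPM and 6.28% ± 0.881 by counts, since its transcript is longer. The 3 genes Atp5g1, Atp5g2 and Atp5g3 encode the same mature c subunit of the ATP synthase ring behind different import sequences. Atp5g3 held 56.8% ± 0.327 of their TPM, Atp5g1 34.3% ± 0.348 and Atp5g2 8.88% ± 0.0211, and this order was the same in both pups.

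Cox6b2 stood apart from the other tissue-type forms. It is described as the testis form of the subunit that joins the complex IV dimer on the intermembrane side. It reached 165 and 137 TPM from 2092 and 1656 counts, beside 790 and 735 TPM for Cox6b1. Its share of the family was 17.3% and 15.7%, a mean of 16.5% ± 1.10, and 16.4% ± 0.997 by counts. Each of the other complex IV tissue-type forms held less than 1% of its family, apart from Ndufa4l2. Of 5 testis germ cell markers, 0 were at 1 TPM or more in both libraries, and their sums were 0.940 and 1.06 TPM. Pgk2 was at 0 counts in both, and Cyct, the testis cytochrome c, at 0.0600 and 0.120 TPM.

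**Figure D2:**
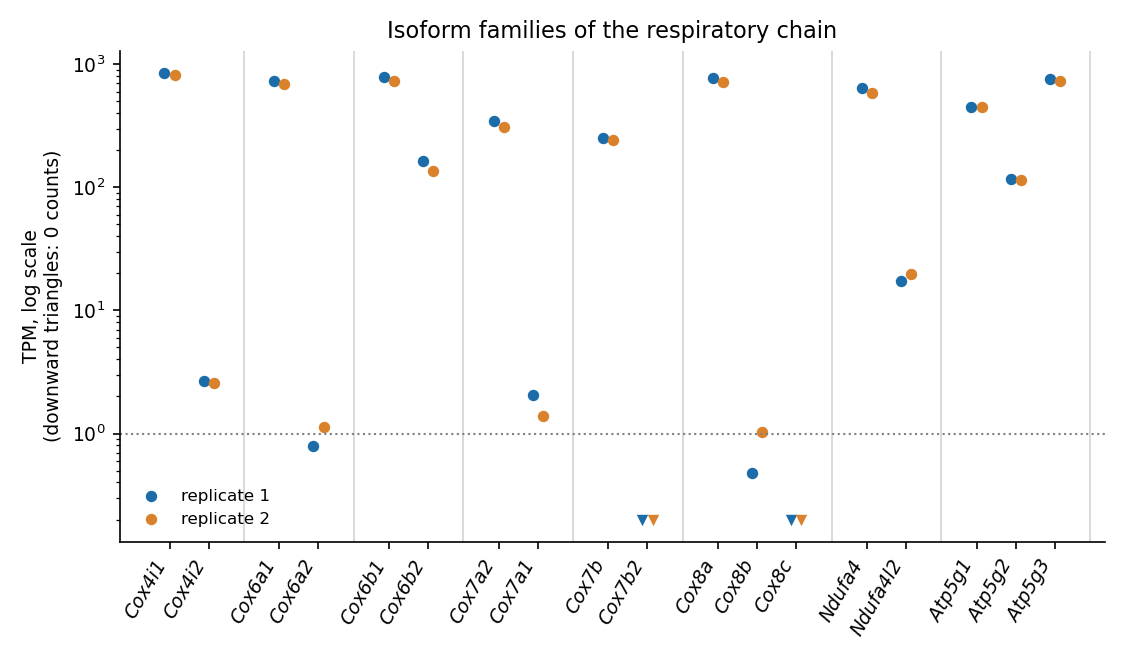
TPM (log axis) of each protein-coding member of 8 isoform families in replicate 1 (blue) and replicate 2 (orange); the dotted line is 1 TPM and triangles mark 0 counts. Cox6b2 sits at 165 and 137 TPM, while Cox4i2, Cox6a2, Cox7a1 and Cox8b lie at or below 2.68 TPM.

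The sequences of Cox6b1 and Cox6b2 were compared to see whether reads could be exchanged between them. Their coding sequences were 65.9% identical over 252 aligned bases, with a longest identical run of 14 bases. No 100-base stretch of Cox6b2 occurred in another gene's transcripts. The 90-base windows below, bases 31 to 120 of the Cox6b1 coding sequence and 37 to 126 of Cox6b2 (GENCODE M21 transcripts), show how the pair differs, with capitals at the 25 bases that are unlike.
Cox6b1: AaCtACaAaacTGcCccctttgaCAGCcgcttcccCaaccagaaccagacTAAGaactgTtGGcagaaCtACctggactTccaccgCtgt
Cox6b2: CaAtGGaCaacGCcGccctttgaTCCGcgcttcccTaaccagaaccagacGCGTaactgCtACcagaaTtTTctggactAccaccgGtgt
Differences fall throughout the window, so a read of this length from one gene carries many bases that the other lacks. The gene lies on the minus strand at chr7:4751792-4753094. The Cox6b2 signal was spread over several annotated transcripts: Cox6b2-203 led with 28.3% ± 2.08 of the gene's TPM, Cox6b2-201 held 16.03% ± 1.58 and Cox6b2-204 13.4% ± 0.794, all annotated as protein-coding. A retained-intron transcript, Cox6b2-205, held 12.98% ± 0.466.

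Coding sequences also differed within other families, though whether reads were assigned correctly was not tested. Coding identity ran from 65.2% for Cox8a and Cox8c to 82.1% for Ndufa4 and Ndufa4l2, which had the longest identical run of any such pair at 28 bases. The value of 82.1% covers 145 aligned bases only, since the Ndufa4 coding sequence used has 147 bases against 261 for Ndufa4l2. Atp5g1 and Atp5g2 were 78.7% identical, with a longest run of 20 bases.

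Processed pseudogenes, which are copies of a messenger RNA inserted elsewhere in the genome, posed a different problem. A copy that matches its parent exactly leaves the counting program to divide the reads. Exact 100-base stretches were shared between 15 of the 94 genes and 23 pseudogenes, of which 17 were listed at 1 TPM or more in both libraries and 5 above 100 TPM. The copies summed to 2148 and 2007 TPM.

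Ndufb4, an accessory subunit of the complex I membrane arm, was the clearest case. Its copy Ndufb4c, on chr15:73809507-73809896, is identical to the Ndufb4 coding sequence over 387 of 387 bases. The stretch below, bases 151 to 250 of both coding sequences, is shown because it is as long as the shared stretches counted here and holds 0 differences.
Ndufb4: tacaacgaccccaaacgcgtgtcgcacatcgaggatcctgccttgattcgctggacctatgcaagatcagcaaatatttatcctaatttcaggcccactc
Ndufb4c: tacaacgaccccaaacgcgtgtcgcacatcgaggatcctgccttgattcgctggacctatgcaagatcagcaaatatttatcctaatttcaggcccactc
The copy was listed at 254 and 240 TPM and Ndufb4 at 52.5 and 44.8 TPM. It thus took 75.1% and 77.2% of the counts of the pair, and together they stood at 307 and 285 TPM. With the TPM sum in place of its own value, Ndufb4 would lie above the accessory median of 203 TPM instead of among the 3 lowest. That position depends on length, since the copy has 390 nt against 567 and 559 nt for Ndufb4. By counts, the pair's 3104 and 2691 lay below the 3281 and 3259 of Ndufa1, the accessory gene at the median CPM. Within Ndufb4, the retained-intron transcript Ndufb4-202 held 80.7% ± 1.11 of TPM and the coding transcript Ndufb4-201 19.3% ± 1.11.

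The other 4 copies above 100 TPM took from 16.5% to 79.3% of the counts of their pairs. Atp5l, a membrane subunit of ATP synthase, was listed at 160 and 170 TPM, and its copy Gm10221 on chromosome 5 at 781 and 766 TPM. All 210 of the copy's 100-base stretches were found in Atp5l, and the copy took 79.3% and 77.9% of the pair's counts. Cox7c at 579 and 501 TPM had the copy Gm12338 at 630 and 538 TPM, but the short copy took 19.1% and 18.9% of counts. Atp5g2 at 118 and 115 TPM had the copy Gm10175 at 216 and 219 TPM, with 58.7% and 59.7% of counts. Atp5g1 at 452 and 447 TPM had the copy Gm10039 at 168 and 148 TPM, with 18.2% and 16.5% of counts. Adding the copies gave 940 and 936 TPM for Atp5l, 334 and 333 TPM for Atp5g2 and 620 and 595 TPM for Atp5g1, so that Atp5g3 still led the c subunit genes. The deposited posterior SD, an estimate of read assignment within a library, exceeded 1% of the count in both libraries in 5 of the 94 genes, Ndufab1, Ndufb4, Atp5g1, Atp5g2 and Atp5l, and was highest in Atp5l at 4.38% and 4.28%. How much of each sum the parent gene contributes was not tested.

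**Figure D3:**
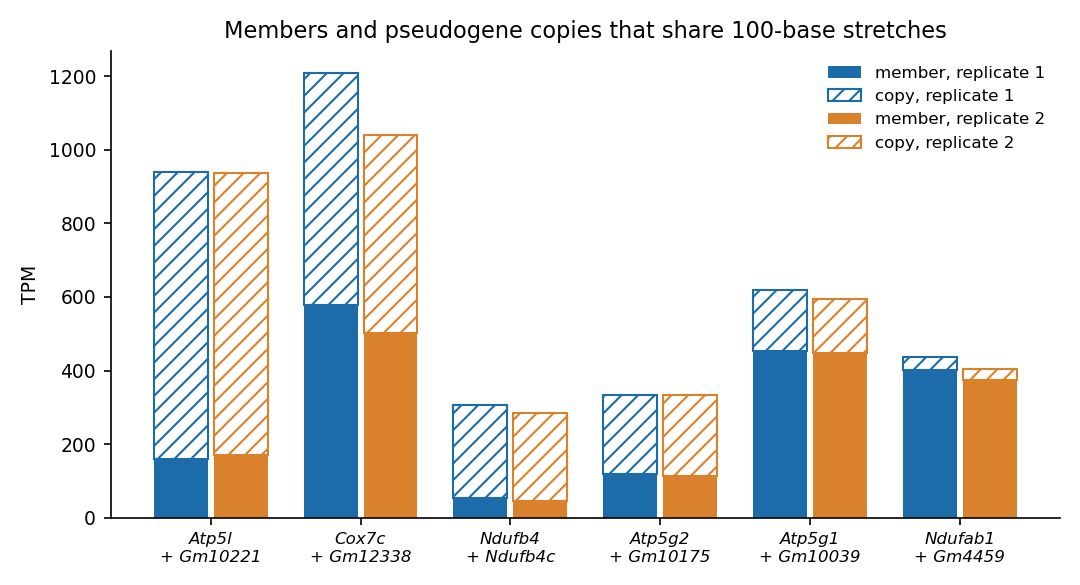
TPM of 6 genes (filled), each with its processed copy stacked on it (hatched), for the 6 copies with the highest TPM, in replicate 1 (blue) and replicate 2 (orange). The copy makes up more of the bar than the gene does for Atp5l, Ndufb4, Atp5g2 and, by a little, Cox7c, and a small part for Ndufab1, whose copy Gm4459 stood at 36.3 and 29.5 TPM.

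Transcript shares were read within each gene. Of the 94 genes, 31 have a single listed transcript, which holds all of the gene's TPM by construction wherever there is any level. The leading transcript held more than 90% of TPM in 56 of the 92 genes with any level, a count that includes such genes, and less than 50% in 6. These 6 were Cox6b2 and the following 5. Cox7b was divided between the retained-intron transcript Cox7b-203 (46.6% ± 5.45) and the coding Cox7b-201 (44.1% ± 3.23), and by counts Cox7b-201 led with 65.8% ± 3.99. Ndufb5-203 held 48.0% ± 5.02, Ndufab1-206 42.3% ± 1.06, Ndufaf3-203 32.7% ± 0.782 and the retained-intron Ndufa10-204 31.0% ± 2.73. In 9 genes the leader by TPM was not annotated as protein-coding, and in 6 by counts. Among them were Atp5j-208 (69.8% ± 1.13 of TPM), Atp5f1-203 (69.8% ± 2.32, annotated as a target of nonsense-mediated decay) and Ndufa5-204 (87.2% ± 2.32). Ndufv3, whose long form includes an extra exon, was carried by the short Ndufv3-202 at 91.4% ± 0.150, with 7.56% ± 0.364 for Ndufv3-201. By counts the long transcript took 23.3% ± 0.95. Atp5c1 was carried by Atp5c1-203 at 89.0% ± 2.17, with 9.77% ± 2.08 for Atp5c1-201. Exons of 27 of the 94 genes overlap another gene, 10 of them over more than 10% of their exonic bases, led by Ndufb6 with Smim27 at 39.0%. Strand use is not known, so reads in such overlaps cannot be told apart.

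The pups were compared by the ratio of replicate 1 to replicate 2 after TMM scaling, which sets the libraries level on most genes. Of the 94 genes, 89 passed a mean count of 20. None of these 89 was 1.5-fold or more apart between the pups, where 6.07% of 13615 protein-coding genes were. That share includes many genes with few counts. At a mean count of 100 or more, 0 of 88 were that far apart, against 2.59% of protein-coding genes. The ratios leaned to the same side: 84 of 89 were higher in replicate 1, against 48% of protein-coding genes. Their median log2 ratio was 0.19, with quartiles of 0.14 and 0.26. The median of protein-coding genes was -0.01, with quartiles of -0.21 and 0.15. Each pup is 1 library, so this is a difference between 2 libraries and has no replicate check.

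The size of the lean depended on the scale. With library totals the median of the 89 genes was 0.09 and 71 were higher in replicate 1, while the protein-coding median moved to -0.11. With deposited TPM the values were 0.04, 66 of 89 and -0.15. TMM and library totals differ by 1 constant per library, so the distance between the medians (0.20) is the same for both by construction. It was 0.19 by TPM.

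By complex, the median log2 ratio under TMM was 0.25 for complex III, 0.24 for complex IV, 0.22 for the F1 head, 0.20 for the ATP synthase stalk and membrane genes, 0.18 for complex I accessory subunits and 0.15 for complex I core subunits. It was 0.08 for complex II and 0.09 for the assembly factors. Complex II (-0.03), the complex I core (-0.01) and the assembly factors (-0.06) changed sign with deposited TPM, and complex II (-0.02) and the assembly factors (-0.01) also with library totals. These scales move nearly all genes alike, and each of these medians still lay above the protein-coding median on the same scale, -0.15 by TPM and -0.11 by library totals.

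The 5 genes with the largest ratios were Cox6b2 (2092 and 1656 counts), Ndufb4 (774 and 613), Uqcrq (5577 and 4516), Cox7c (7813 and 6385) and Ndufaf3 (761 and 635). The Ndufb4 ratio depends on how reads were divided with its copy Ndufb4c. The copy took 75.1% and 77.2% of the pair's 3104 and 2691 counts. Cox6b2 was 1.32-fold higher in replicate 1, with an exact binomial 95% counting interval of 1.23 to 1.40 that takes no account of differences between pups. For Uqcrq the ratio was 1.29 (1.24 to 1.34). At the other end were Cox7a2l (3027 and 3292 counts), Ndufa4l2 (473 and 504), Ndufaf8 (821 and 861) and Ndufaf5 (226 and 236). Their log2 ratios ran from -0.06 for Cox7a2l to -0.00430 for Ndufaf5, and the interval of each included a ratio of 1.

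Cell type markers moved between the same libraries. The erythroid list had a median log2 ratio of 0.34 (6 of 6 genes higher in replicate 1), the neutrophil list -0.36 (0 of 6), the macrophage list -0.46 (0 of 6), the B cell list -0.32 (0 of 5) and the stromal list -0.24 (0 of 5). Acinar pancreas markers stood at 1.80 (5 of 5 with counts enough) and liver markers at 1.10 (4 of 4). The part of these lists in the respiratory chain ratios was not tested.

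**Figure D4:**
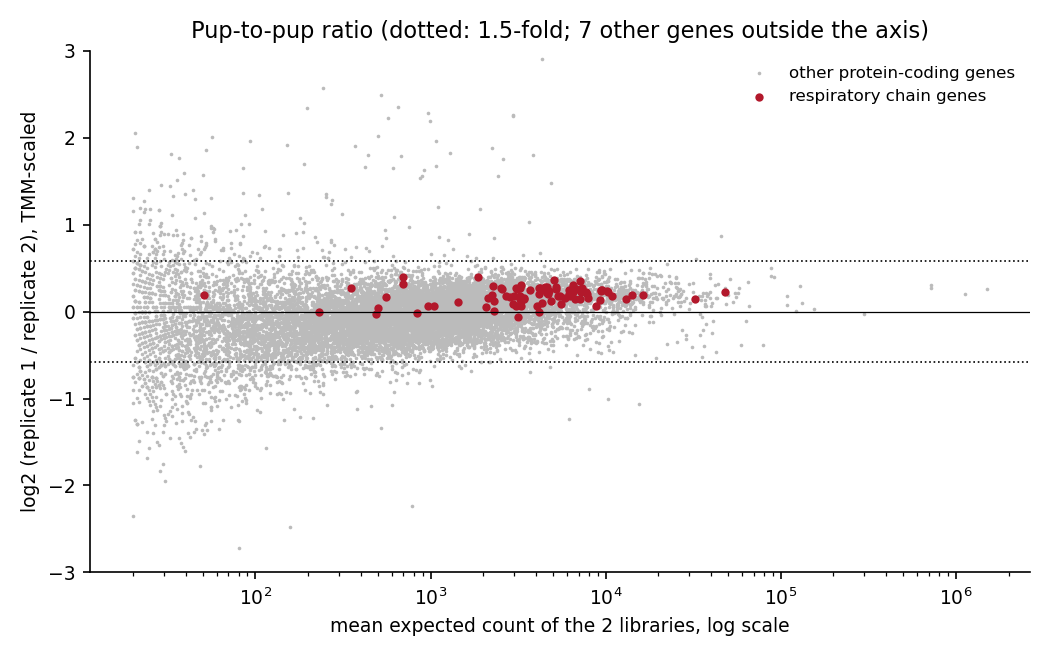
Log2 ratio of replicate 1 to replicate 2 after TMM scaling against the mean expected count (log axis) for protein-coding genes with a mean count of 20 or more, respiratory chain genes in red. The 89 red points lie between -0.06 and 0.39, inside the dotted 1.5-fold lines, and 84 of them lie above 0.

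Other genes of the pathway gave the surroundings of these subunits. All 13 mitochondrially encoded subunits were detected, with a median of 1513 ± 38.5 TPM and sums of 25880 and 25196 TPM, close to the 25647 and 24374 TPM summed over the 94 nuclear genes. They ranged from mt-Atp6 at 7252 and 7500 TPM to mt-Nd4l at 68.1 and 69.1 TPM, and mt-Co3 was the 1 gene of the 13 past 1.5-fold, at 2694 and 1621 TPM.

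Carriers linked to the chain were uneven. Slc25a5, the ubiquitous ADP/ATP carrier, stood at 481 and 447 TPM and Slc25a4, its heart and muscle form, at 87.0 and 104.9 TPM. Cycs, somatic cytochrome c, was at 33.3 and 31.1 TPM, below most of the subunits between which it carries electrons. By counts the gap was smaller: Cycs had 2941 and 2560, and Uqcr11, the complex III gene at the median CPM, had 5719 and 5275. Processed copies of Cycs were not looked for. Slc25a31 and Cyct, the germ cell forms, were at or below 0.120 TPM. Here 3 of 5 genes were detected and 0 of the 3 with enough counts were past 1.5-fold.

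Assembly factors outside the Ndufa prefix were all detected: 11 of the 11 complex I factors found of 12 listed, 4 of 4 for complex II, 6 of 6 for complex III, 21 of 21 for complex IV and 2 of 2 for complex V. Their medians were 14.2, 13.5, 13.1, 21.7 and 23.1 TPM. Among complex I factors, Dmac1 was highest at 71.7 and 74.7 TPM and Nubpl, which delivers iron-sulfur clusters, lowest at 5.85 and 6.49 TPM. For complex II, Sdhaf4 led at 52.0 and 51.5 TPM and Sdhaf3 was lowest at 2.32 and 2.40 TPM. For complex III, Uqcc2 led at 143 and 139 TPM and Lyrm7 was lowest at 2.76 and 3.12 TPM. Cox17, the copper chaperone of complex IV, stood well above the other factors of that list at 357 and 315 TPM, and Pet117 was lowest at 1.91 and 1.84 TPM. None of these genes was 1.5-fold apart between the pups.

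All 14 TCA cycle genes were detected, with a median of 67.6 ± 1.96 TPM. They ranged from Mdh2, malate dehydrogenase, at 285 and 267 TPM to Suclg2, a succinyl-CoA ligase subunit, at 31.5 and 36.9 TPM. Of 13 regulators listed for respiratory genes, 12 were detected. Chchd2 was highest at 577 TPM in both pups. Nrf1 stood at 38.3 and 34.3 TPM, Tfam, the mitochondrial transcription factor, at 34.4 and 31.9 TPM, and Gabpa at 13.3 and 13.7 TPM. Ppargc1a, the coactivator PGC-1alpha, was the regulator below 1 TPM, at 0.260 and 0.190 TPM from 31 and 24 counts, and Ppargc1b stood at 1.63 and 1.76 TPM.

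Core motifs of factors known to act on respiratory genes were looked for in promoter sequence. RefSeq promoter windows (GRCm38.p6, 250 bases before to 50 after the start) were matched for 76 of the 94 genes. The motifs searched, on both strands, were the NRF-1 core GCGCANGCG, the ETS core CCGGAAG read by GABP, and the YY1 core AAGATGGCG. The ETS core ends and the YY1 core begins with AAG, so these matches can overlap, and 1 window held both. The stretches below, 30 bases each, show a match to the ETS core (reverse strand) in Cox6b1 and to the NRF-1 core in Sdha and Atp5g2, in capitals, and the same distance from the start in Cox6b2 and Cox7a1, which hold no match anywhere in their windows.
Cox6b1 (chr7:30626115-30626144, minus strand): agCTTCCGGccagtcggaattccgcttccc
Sdha (chr13:74350241-74350270, minus strand): cgacacccgcgcgactcggtGCGCAAGCGc
Atp5g2 (chr15:102671063-102671092, minus strand): gccGCGCATGCGCagagccttccctcgcgc
Cox6b2 (chr7:4753095-4753124, minus strand): cccgcattacagacagctcctattggctgg
Cox7a1 (chr7:30184141-30184170, plus strand): agtgggcgtggcttgggattcccttagggt
The Atp5g2 stretch runs from 45 to 16 bases before the start and the others from 30 to 1 before it. In Atp5g2 a pair of overlapping matches, 1 on each strand, gives the run of 10 capitals.

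The NRF-1 core was present in 21 of the 76 windows (27.6%), against 6.25% of 32851 RefSeq windows and 8.58% of those of protein-coding genes. The ETS core was in 17 (22.4%, against 8.86% and 11.6%) and the YY1 core in 7 (9.21%, against 1.40% and 1.83%). Any of the 3 was found in 37 windows (48.7%, against 14.8% and 19.6%), and 6 windows held both NRF-1 and ETS cores. By complex, a match was found in 3 of 3 windows of complex II, 13 of 27 for complex I accessory subunits, 7 of 10 for the ATP synthase stalk and membrane genes and 3 of 14 for complex IV. Atp5b, the highest gene, had no match. The median level was 217 TPM for genes with a match and 223 TPM for those without. A match is a description of letters in a window and not a bound site.

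**Figure D5:**
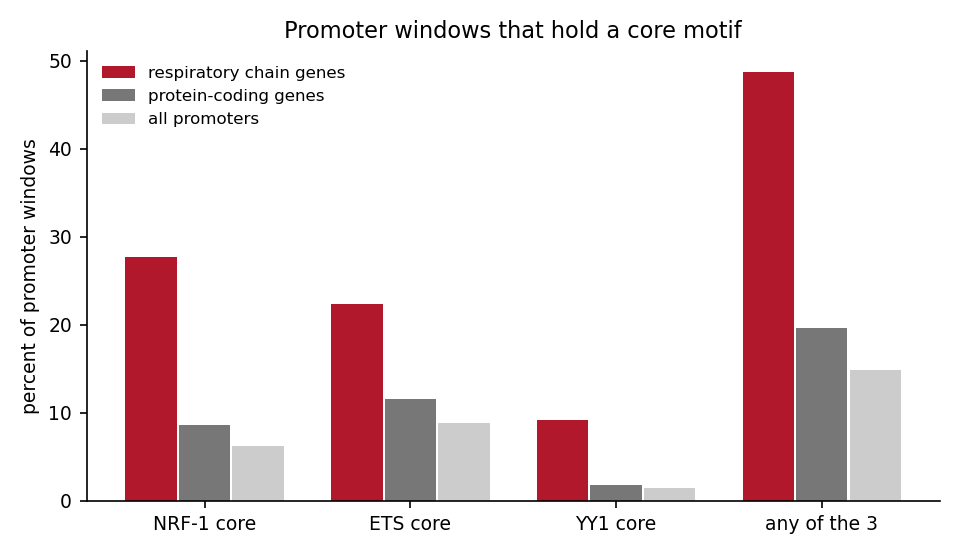
Percent of promoter windows that hold the NRF-1, ETS or YY1 core, or any of the 3, for 76 respiratory chain genes (red), protein-coding genes (dark grey) and all RefSeq windows (light grey). Each red bar is above both grey bars, at 27.6%, 22.4%, 9.21% and 48.7%.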

How the data were processed

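Whole newborn spleen RNA was measured in 2 libraries. The layout of the deposited tables is that of RSEM, with mm10 and GENCODE M4 per the labels' listing. The strand setting and the aligner, not given in the sources used here, stay unnamed. The authors deposited expected counts and TPM per gene and transcript, the posterior mean and SD of each, and isoform percent values (not used here); effective length was length minus 99 bases. Names and coordinates came from GENCODE M21 (same build), of which 95 genes match the name rule and 1 is not in the tables. Transcript sequences and exon overlaps also came from M21, whose transcripts can differ from those quantified, as for Ndufa11.

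Levels are deposited TPM, detected meaning 1 TPM or more in both libraries. Expected counts, rounded to whole numbers, were scaled by TMM (edgeR 4.0.16, R 4.3.3, prior count 2) for genes with a mean count of 20 or more, and a fold of 1.5 was used to count genes apart. The ratio code was tested on simulated data. DESeq2 1.42.0 size factors, library totals, TPM ratios, posterior means, other count and TPM minima and other folds were alternatives. The libraries hold 33122187 and 32162543 counts, so counting error is small except for tissue-type isoforms, where exact Poisson intervals were used.

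Named genes were all isoform family members, members under 1 TPM, complexes II and III and the complex I core, the 3 highest and 3 lowest of other lists, the 5 largest ratios each way at a mean count of 100 or more, and the highest, lowest and undetected pathway genes. A gene that this rule names is not reported here, though group counts and medians include it. Members, lists and rule were chosen with earlier results of these data known. Both replicates are labelled as pregnancy 1, and SDs measure only the spread between these samples. Figures used matplotlib 3.10.9 and alignments Biopython 1.88.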

Additional observations from a re-analysis of the deposited data

How the results depend on the processing

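Detection held at 88 to 92 of 94 genes under 0.5 and 5 TPM, posterior means, full length, rescaling to protein-coding genes without globins, and with either replicate left out. The share of TPM was 2.44% without replicate 1 and 2.56% without replicate 2. It was 4.11% over protein-coding genes without globins, 1.52% by expected counts and 2.71% with the pseudogene copies added, an alternative chosen after seeing the data; the denominators and members differ by construction. The number of genes 1.5-fold apart was 0 under both other scalings, posterior counts, TPM and a mean count of 100. Of protein-coding genes, 2.59% were that far apart at a mean count of 100 and 5.99% to 10.8% under the others. The number was 2 when 1 count in each library sufficed, where 3 more genes, with few counts, enter and 11.7% of protein-coding genes were that far apart. At a log2 ratio of 0.32 in either direction it was 4, against 22.5% of protein-coding genes. The median log2 ratio was 0.0902 with library totals and 0.0429 with TPM, where the protein-coding median moved by a like amount. Of 16 isoform shares recomputed from posterior means or counts, 10 stayed within 1 SD and 6 moved, Cox7a1 to 0.211% and Ndufa4l2 to 6.28% by counts among them. No paired analysis was possible because there is 1 group. Depth limits the precision of Cox6a2, Cox7a1 and Cox8b, which rest on 4 to 19 counts.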
